A study of Homo sapiens with 8 samples.

Results

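The imprinted microRNA cluster of human chromosome 14q32, which lies in the DLK1-DIO3 region, was followed in HCT116 cells sorted by the surface protein CD44v6. Its members were taken by name: 48 hairpin names of the cluster, each with an optional copy number and an optional arm suffix (5p or 3p, for the side of the hairpin that a mature miRNA comes from). They matched 91 of the 2026 entries (4.49%) of the deposited count table, in which an entry is a mature miRNA. HCT116 is a human colorectal cancer cell line. In both groups the cells grew as spheroids without serum in flasks of low attachment. They were labelled with a fluorescent antibody to CD44v6, a variant of the hyaluronan receptor CD44 made by splicing, and sorted with propidium iodide as the stain to leave out dead cells. The groups were stained (CD44v6-positive) and unstained (CD44v6-negative) cells of this 1 line, so differences between lines cannot be seen. The labels list 8 sequencing entries that fall into 4 combined samples, 2 CD44v6-negative and 2 CD44v6-positive, and the count table has 1 column for each combined sample.

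The cluster is transcribed from the maternal chromosome as a series of noncoding RNAs, among them MEG3, MEG8 and MEG9, while the protein-coding genes DLK1, RTL1 and DIO3 are expressed from the paternal chromosome. Its miRNAs are cut from these long transcripts and are best known from placenta, embryo, brain and pluripotent stem cells, with low levels in most adult epithelia. A miRNA finds its messenger RNAs mainly through its seed, bases 2 to 8 from the 5′ end, so members with different seeds are predicted to bind different messages.

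The mature sequences of the 11 members with enough reads for a test are shown because the comparison of the groups rests on them. They are written 5′ to 3′ from the RefSeq table for GRCh38.p14, with the seed in capitals.
hsa-miR-127-3p: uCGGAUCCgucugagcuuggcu
hsa-miR-411-5p: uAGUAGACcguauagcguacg
hsa-miR-758-3p: uUUGUGACcugguccacuaacc
hsa-miR-654-3p: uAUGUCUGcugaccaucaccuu
hsa-miR-381-3p: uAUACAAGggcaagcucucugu
hsa-miR-487b-3p: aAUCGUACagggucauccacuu
hsa-miR-889-3p: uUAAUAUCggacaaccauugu
hsa-miR-382-5p: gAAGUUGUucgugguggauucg
hsa-miR-134-5p: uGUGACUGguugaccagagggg
hsa-miR-409-3p: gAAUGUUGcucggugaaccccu
hsa-miR-410-3p: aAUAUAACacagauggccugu

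All 11 seeds differ from one another, and 7 of the 11 miRNAs begin with U. No other entry matched by the list of names shares a seed with any of them. Among entries not on that list, wherever they lie, the seed of miR-381-3p (AUACAAG) is also that of miR-300. The seed of miR-134-5p (GUGACUG) is also that of miR-3118, and both of those entries had 0 reads. RefSeq sequences were found for 90 of the 91 entries, which held 80 distinct seeds, 9 of them shared by 2 or more members. Of the shared seeds the most read was UAUACAG, that of miR-1185-1-3p and miR-1185-2-3p, with 62 reads in all. These copies are printed to show how alike they are.
hsa-miR-1185-1-3p: aUAUACAGggggagacucuuau
hsa-miR-1185-2-3p: aUAUACAGggggagacucucau

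How the authors' counting assigned a read that fits more than 1 entry is not given in the sources used here, so the split between such copies is uncertain. The seed UCAUACA of miR-485-3p and miR-539-3p held 49 reads, and UCAUAGA of miR-376a-3p and miR-376b-3p held 23.

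The 48 names have 51 hairpins. RefSeq and GENCODE 29, both on GRCh38, gave the same positions for 47 of 47 found in both, and 4 were taken from GENCODE 29. All lie on the plus strand of chromosome 14 between 100852390 and 101066801, a span of 214.4 kb downstream of DLK1 (100725705 to 100738224). They form an upstream group of 9 hairpins over 32.4 kb, a lone hairpin of miR-370, and a downstream group of 41 hairpins over 44.7 kb. Between MIR136, the last of the upstream group, and MIR379, the first of the downstream group, lie 137.3 kb. In the upstream group, 5 hairpins (MIR431, MIR433, MIR127, MIR432 and MIR136) are antisense to RTL1, a retrotransposon-derived gene on the minus strand (100879753 to 100903722). An annotated host gene on the same strand covers 35 of the 51 hairpins, and 16 lie outside any annotated host. Introns of MEG8 carry 13 downstream hairpins and introns of MIR381HG 6, and MEG9 carries 5 in introns and 1, MIR410, in an exon.

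The hairpins of 4 members whose levels or arms the results turn on are shown with both listed arms in capitals. The hsa-miR-127 hairpin (chr14:100882979-100883075) is in an intron of AL117190.1, the hsa-miR-411 hairpin (chr14:101023325-101023420) in an intron of MEG8, the hsa-miR-654 hairpin (chr14:101040219-101040299) in no annotated host, and the hsa-miR-409 hairpin (chr14:101065300-101065378) in an intron of MEG9. All are on the plus strand of GRCh38.
MIR127: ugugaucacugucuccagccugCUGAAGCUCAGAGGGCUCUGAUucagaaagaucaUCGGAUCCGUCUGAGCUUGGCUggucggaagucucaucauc
MIR411: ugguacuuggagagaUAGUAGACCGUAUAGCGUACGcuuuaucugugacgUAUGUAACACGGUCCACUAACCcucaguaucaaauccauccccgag
MIR654: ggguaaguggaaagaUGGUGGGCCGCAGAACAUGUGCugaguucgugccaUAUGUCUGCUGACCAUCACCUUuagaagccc
MIR409: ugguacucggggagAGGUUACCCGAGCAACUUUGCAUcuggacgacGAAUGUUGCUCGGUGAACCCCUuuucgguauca

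The libraries differed widely in depth. The CD44v6-negative libraries held 7880631 (sample 1) and 4592278 reads (sample 2), and the CD44v6-positive libraries 919802 (sample 1) and 154481 reads (sample 2), 51 times fewer in the shallowest than in the deepest. CD44v6-positive sample 2, the shallowest, stood apart in some markers of stroma, blood and epithelium given below. Results that rest on it are therefore given with and without it. Levels are in CPM, reads per 1000000 reads scaled by edgeR's TMM factors, and 1 read was worth 5.21 CPM in that library. Intervals are exact 95% intervals (Poisson for CPM, Clopper-Pearson for shares) and cover counting error only, because copies made by PCR are not separate molecules. Nothing in the labels says whether the samples of a group were cultured separately. The p-values therefore measure the spread between these samples alone, and that spread may be technical.

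The cluster was read at a low level in both groups. It held 3036 of the 13547192 reads of all libraries, or 0.0224%, from 4.49% of the entries. At least 1 read was found for 62 of the 91 entries and for 40 of the 48 hairpin names, and 29 entries were unread. Reads were found in both groups for 27 entries, in CD44v6-negative cells alone for 34, and in CD44v6-positive cells alone for 1, miR-136-5p. Of all 2026 entries 1510 were read, 910 in both groups, 575 in CD44v6-negative cells alone and 25 in CD44v6-positive cells alone. The imprinted primate cluster of chromosome 19, chosen for comparison, had reads in 8 of its 35 entries, 31 in all.

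The number of members read was larger in the deeper CD44v6-negative libraries, though not largest in the deepest. It was 47 and 61 in CD44v6-negative samples 1 and 2, and 24 and 17 in CD44v6-positive samples 1 and 2. At a common depth of 154481 reads the expected numbers were 9.69 and 18.6 in the CD44v6-negative samples and 9.44 and 17.0 in the CD44v6-positive samples. The groups overlapped at that depth, with 1 sample of each group near either value. Over all entries of the table the expected numbers were 478 and 608, and 547 and 627. The 34 entries read in CD44v6-negative cells alone would each have given at most 3.96 reads in the CD44v6-positive libraries at the same share. A count of 0 allows up to 3 reads (a one-sided limit). Only miR-409-5p, miR-1185-1-3p and miR-487a-3p had more than that expected, each by less than 1 read, and for the others a difference was not detectable at this depth.

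The summed level of the cluster did not separate the groups. Its reads were 1096 and 1728 in CD44v6-negative samples 1 and 2 and 118 and 94 in CD44v6-positive samples 1 and 2. As shares of each library these were 0.0139% and 0.0376%, and 0.0128% and 0.0608%. The lowest and the highest share were both in CD44v6-positive cells. In TMM-scaled CPM the sums were 210 (interval 197 to 222) and 313 (298 to 328) in CD44v6-negative cells, and 127 (105 to 152) and 489 (396 to 599) in CD44v6-positive cells. The means were 261 ± 73.2 and 308 ± 256 CPM (SD, n = 2), a log2 ratio of 0.24 for positive to negative. Without CD44v6-positive sample 2 the log2 ratio was -1.04, without CD44v6-negative sample 1 it was -0.02, and without miR-127-3p it was -0.26, so the sign was not stable. With 2 samples in each group an exact two-sided permutation p cannot go below 0.33, and no test was made of the sum.

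A few members held most of the reads. The 10 most read entries held 80.9% of them, led by miR-411-5p with 642 reads, miR-381-3p with 504, miR-654-3p with 336, miR-409-3p with 312 and miR-410-3p with 235. Next came miR-127-3p with 199 and miR-889-3p with 99. The remaining 3 were miR-409-5p, miR-1185-1-3p and miR-376c-3p, with 46, 45 and 38 reads. Each read is 1 mature miRNA, so these numbers need no scaling by length, but capture in a small RNA library differs between sequences. The level in each sample is shown for the 11 tested entries in the plot of levels.

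**Figure D1:**
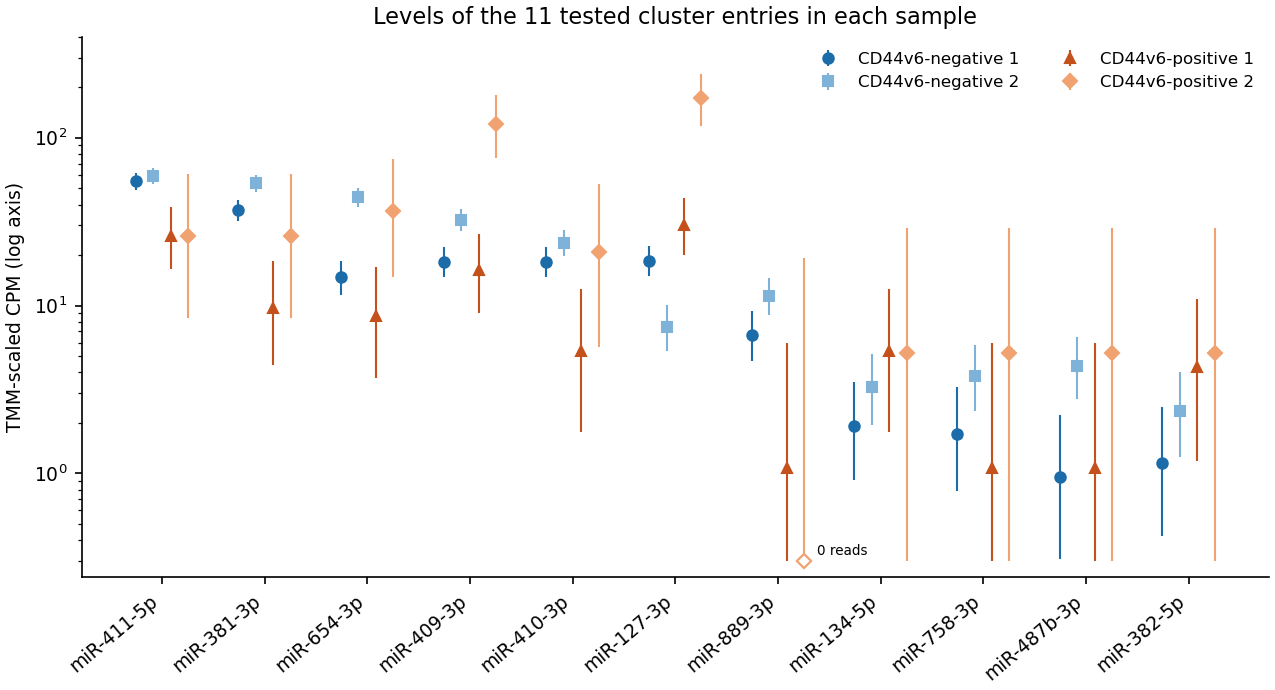
TMM-scaled CPM (vertical log axis) of the 11 tested cluster entries in each of the 4 samples, ordered by total reads, with exact 95% Poisson intervals as bars; whiskers that reach below the axis are drawn to its lower end, and the open symbol marks 0 reads. miR-411-5p and miR-889-3p sit lower in the CD44v6-positive than in the CD44v6-negative samples, and miR-127-3p sits higher in both, at 30.2 and 172 CPM against 18.5 and 7.43 CPM.

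None of the 11 tested members passed in the comparison of the groups. The test was edgeR's quasi-likelihood test over the 570 entries that passed a filter on low counts, with Benjamini-Hochberg adjusted p under 0.05 as the threshold, and it called 0 of them (0%). At an unadjusted p under 0.05 it gave 174 of 570 entries (30.5%) and 2 of the 11 members, miR-127-3p and miR-889-3p, a share below that of all entries. Both CD44v6-positive samples lay above both CD44v6-negative samples in 142 tested entries (24.9%) and in 3 members, miR-127-3p, miR-134-5p and miR-382-5p. Both lay below in 197 tested entries (34.6%) and in 3 members, miR-381-3p, miR-411-5p and miR-889-3p. Neither count of members stands far from the share of all entries. Of these members miR-382-5p met the filter only in the CD44v6-positive samples, and miR-889-3p only in the CD44v6-negative samples. Each was thus tested only because of the group where it was high, so its direction in these counts is no support. miR-134-5p met the filter in both CD44v6-positive samples, but in sample 2 alone of the CD44v6-negative ones. It would not have passed on the CD44v6-negative samples alone, so its direction is no support either. The median log2 fold change of the 11 was -0.44, with 4 positive and 7 negative, beside -0.31 over all 570, with 254 positive and 316 negative. Scaling by the library totals moved the median over all entries to 0.01 and that of the 11 to -0.30, and left each of the 11 with its sign. With CD44v6-positive sample 1 left out the median was 0.77 for the 11 beside -0.77 over all entries, and with CD44v6-positive sample 2 left out it was -1.01 beside -0.25.

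Other tools called few members. DESeq2 called 52 of 590 entries (8.81%) and 1 member of the cluster, miR-136-5p, with 3 reads in CD44v6-positive sample 2 and 0 in the other libraries. Its DESeq2 adjusted p was 0.0442, and no fold is given against a group at 0 reads. miR-127-3p had a log2 fold change of 2.56 ± 0.92 (SE) and an adjusted p of 0.0571 in DESeq2. limma-voom called 4 of 570 entries (0.702%) and 0 of the 11 members.

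The upstream group was led by 1 miRNA. Of its 16 entries 5 were read, and miR-127-3p, which is antisense to RTL1 and directs cleavage of its messenger RNA, gave 199 of the group's 218 reads. miR-127-3p had 97 and 41 reads in CD44v6-negative samples 1 and 2, against 28 and 33 reads in the much shallower CD44v6-positive samples 1 and 2. At the CD44v6-negative share the CD44v6-positive libraries would together have held 11.9 reads of it, where 61 were found. Both CD44v6-positive samples were higher than both CD44v6-negative samples.

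In TMM-scaled CPM, miR-127-3p was at 18.5 and 7.43 in CD44v6-negative cells and at 30.2 and 172 in CD44v6-positive cells. The means were 13 ± 7.86 and 101 ± 100 CPM (SD, n = 2), and the log2 fold change was 2.89 ± 1.01 (SE), with an edgeR adjusted p of 0.130. The spread within CD44v6-positive cells was as wide as their mean. Without CD44v6-positive sample 2 the log2 fold change was 1.41, and without CD44v6-positive sample 1 it was 3.61. Without CD44v6-negative sample 1 it was 3.76, and with scaling by library totals 3.46 (edgeR adjusted p = 0.023). With that scaling edgeR called 48 of all 570 tested entries, beside 0 with TMM scaling. The log2 fold change of miR-127-3p was positive under every setting tried.

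The other upstream members were close to unread. miR-136-3p had 6 and 5 reads in CD44v6-negative samples 1 and 2, against 0 and 2 in CD44v6-positive samples 1 and 2. miR-136-5p had 3 reads, all in CD44v6-positive sample 2. miR-432-5p had 1 read in each CD44v6-negative sample, and miR-493-5p 1 read in CD44v6-negative sample 2. The entries of miR-337, miR-431, miR-433, miR-665 and miR-770 had 0 reads in all libraries, and so did both arms of miR-370. The 3 reads that a count of 0 allows were 0.574, 0.544, 3.23 and 15.6 CPM in the order of samples used here. In CD44v6-positive sample 2 a member could thus lie above the 7.43 CPM that miR-127-3p had in CD44v6-negative sample 2 and not be read.

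**Figure D2:**
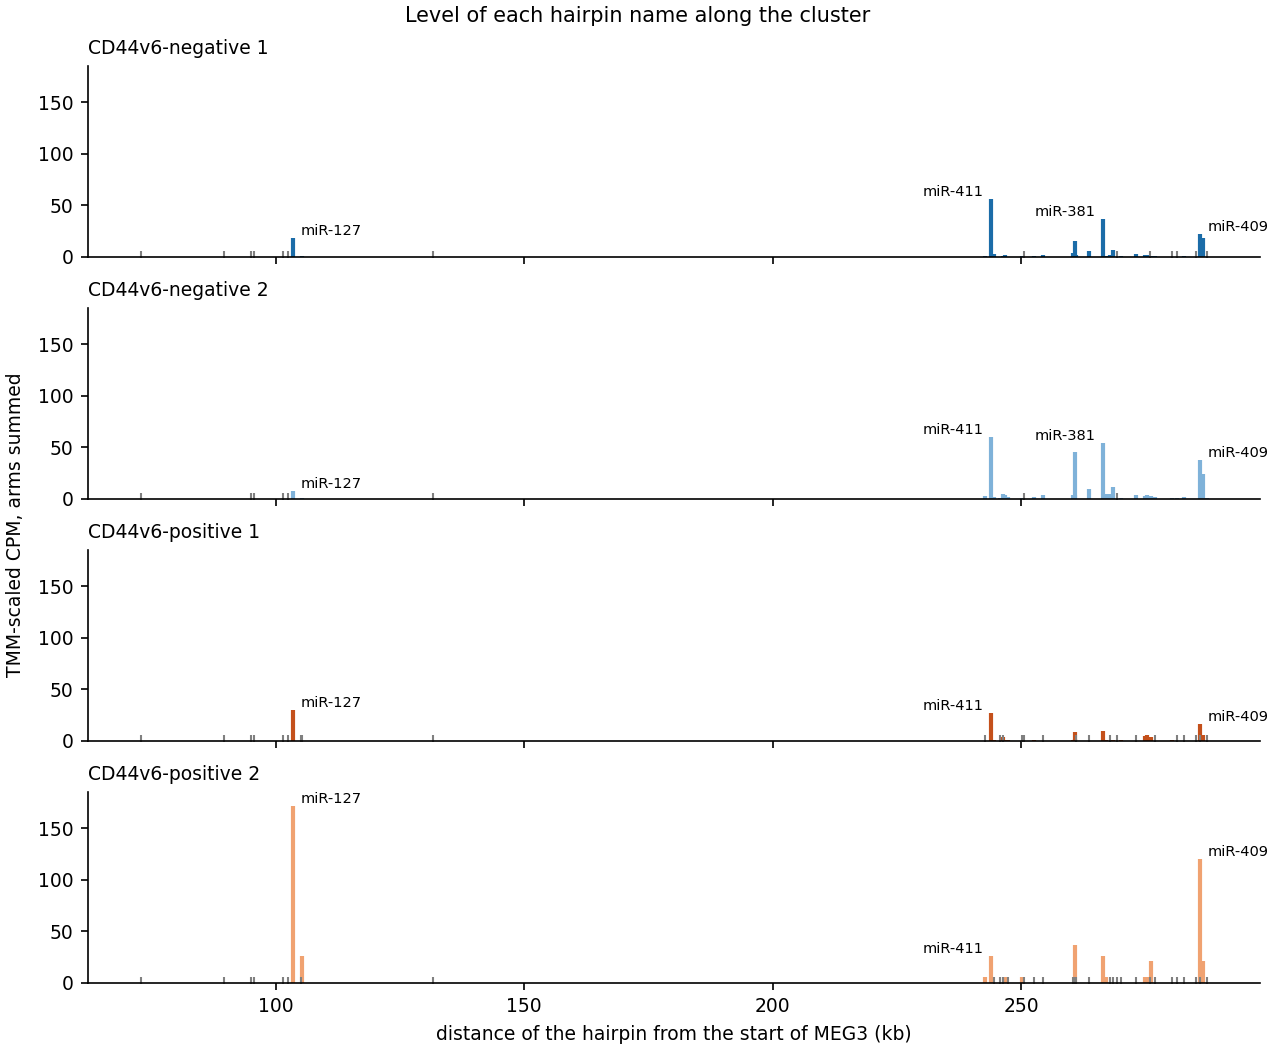
TMM-scaled CPM of each hairpin name with its arms summed (vertical axis), at the distance of its hairpin from the start of MEG3 in kb (horizontal axis), in each of the 4 samples; grey ticks mark names with 0 reads. The upstream group shows 1 tall line, miR-127, and the downstream group several, with miR-409 tallest there in CD44v6-positive sample 2.

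The downstream group, from miR-379 to miR-656, carried 57 of the 62 read entries and 10 of the 11 tested ones. Its reads were 992 and 1680 in CD44v6-negative samples 1 and 2 and 90 and 56 in CD44v6-positive samples 1 and 2. In summed TMM-scaled CPM these were 190 and 304, and 97.0 and 292. The groups overlapped, and the log2 ratio of the means was -0.35. It was -1.35 without CD44v6-positive sample 2, 0.24 without CD44v6-positive sample 1 and 0.04 without CD44v6-negative sample 2.

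miR-411-5p, near the start of the downstream group, was the most read member. It had 287 and 326 reads in CD44v6-negative samples 1 and 2, against 24 and 5 in CD44v6-positive samples 1 and 2. At the CD44v6-negative share 52.8 reads would have been found in CD44v6-positive cells, where 29 were. Both CD44v6-positive samples were lower than both CD44v6-negative samples, also with scaling by library totals.

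The levels of miR-411-5p were 54.9 and 59.1 CPM in CD44v6-negative cells and 25.9 and 26.0 CPM in CD44v6-positive cells. The means were 57.0 ± 2.97 and 26.0 ± 0.113 CPM (SD, n = 2), and the log2 fold change was -1.13 ± 0.59 (SE), with an edgeR adjusted p of 0.237. The interval of CD44v6-positive sample 2, from 8.45 to 60.8 CPM, took in both CD44v6-negative values, so the closeness of the CD44v6-positive values is not a measure of their precision. Without 1 sample the log2 fold change ran from -1.25 to -0.91.

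miR-381-3p, from an intron of MIR381HG, had 194 and 296 reads in CD44v6-negative samples 1 and 2, against 9 and 5 in CD44v6-positive samples 1 and 2. In CPM it was at 37.1 and 53.6, and at 9.70 and 26.0. The CD44v6-positive samples were lower, though with scaling by library totals the groups overlapped. The log2 fold change was -1.53 ± 0.76 (SE), with an edgeR adjusted p of 0.222. It was -1.98 without CD44v6-positive sample 2 and -0.93 without CD44v6-positive sample 1.

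miR-889-3p, from the same host gene, had 35 and 63 reads in CD44v6-negative samples 1 and 2, against 1 and 0 in CD44v6-positive samples 1 and 2. At the CD44v6-negative share 8.44 reads would have been found in CD44v6-positive cells. Both CD44v6-positive samples were lower, at 1.08 and 0 CPM against 6.69 and 11.4 CPM. The pooled share of reads in CD44v6-positive cells was 0.118 times that in CD44v6-negative cells, with an exact counting interval of 0.00297 to 0.676. The log2 fold change was -3.33 ± 1.17 (SE), with an edgeR adjusted p of 0.132, and without 1 sample it ran from -8.06 to -2.79, the first of these being a fitted value against 0 reads and no bound. Its size therefore rests on a single read in CD44v6-positive cells, and miR-889-3p met the filter only in CD44v6-negative cells.

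miR-409-3p, near the far end of the cluster, divided the CD44v6-positive samples. It had 95 and 179 reads in CD44v6-negative samples 1 and 2, against 15 and 23 in CD44v6-positive samples 1 and 2. The levels were 18.2 and 32.4 CPM, and 16.2 and 120 CPM, so CD44v6-positive sample 2 was the highest. The interval of CD44v6-positive sample 1, from 9.05 to 26.7 CPM, took in the value of CD44v6-negative sample 1. The log2 fold change was 1.31 ± 0.99 (SE), with an edgeR adjusted p of 0.419. Without CD44v6-positive sample 2 it was -0.39.

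miR-410-3p, from an exon of MEG9 close to miR-409, was at 18.2 and 23.7 CPM in CD44v6-negative cells and at 5.39 and 20.8 CPM in CD44v6-positive cells. Its reads were 95, 131, 5 and 4 in that order. The groups overlapped, and the log2 fold change was -0.99 ± 0.86 (SE), with an edgeR adjusted p of 0.489. It was -1.71 without CD44v6-positive sample 2 and -0.14 without CD44v6-positive sample 1. miR-654-3p, outside any annotated host, was at 14.7 and 44.2 CPM, and at 8.63 and 36.5 CPM, from 77, 244, 8 and 7 reads. Within each group sample 2 was the higher, and the groups overlapped. Its log2 fold change was -0.61 ± 0.98 (SE), with an edgeR adjusted p of 0.692. It was -1.5 without CD44v6-positive sample 2, and it turned positive on leaving out CD44v6-negative sample 2 (0.59) or CD44v6-positive sample 1 (0.17).

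The last 4 tested members rested on 1 read in CD44v6-positive sample 2. miR-134-5p, known in neurons as a regulator of dendritic spine size, had 10, 18, 5 and 1 reads in the order used above, or 1.91, 3.26, 5.39 and 5.21 CPM. miR-382-5p, whose hairpin neighbours that of miR-134, had 6, 13, 4 and 1 reads, or 1.15, 2.36, 4.31 and 5.21 CPM. Both were higher in both CD44v6-positive samples, by log2 fold changes of 1.03 ± 0.86 and 1.36 ± 0.93 (SE), with edgeR adjusted p of 0.463 and 0.368. A single read sets the value of CD44v6-positive sample 2 in each, and without that library the log2 fold changes were 1.29 and 1.53. miR-382-5p met the filter only in the CD44v6-positive samples, and miR-134-5p there and in CD44v6-negative sample 2.

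miR-487b-3p had 5, 24, 1 and 1 reads, or 0.956, 4.35, 1.08 and 5.21 CPM, and miR-758-3p had 9, 21, 1 and 1 reads, or 1.72, 3.8, 1.08 and 5.21 CPM. The groups overlapped in both. The log2 fold changes were -0.38 ± 1.40 and -0.44 ± 1.21 (SE), with edgeR adjusted p of 0.873 and 0.829, although the means in CPM were higher in CD44v6-positive cells, at 3.14 against 2.65 and at 3.14 against 2.76. As pooled shares of reads the ratios of positive to negative were 0.801 (exact counting interval 0.0926 to 3.17) and 0.774 (0.0896 to 3.05), so no direction can be read for either. Without CD44v6-positive sample 2 the log2 fold changes were -1.01 and -1.08.

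The 80 untested members together had 186 and 372 reads in CD44v6-negative samples 1 and 2, against 17 and 13 in CD44v6-positive samples 1 and 2. In summed CPM they were at 35.6 and 67.4, and at 18.3 and 67.7, and the groups overlapped. The most read of them, miR-409-5p, had 19 and 27 reads in CD44v6-negative cells and 0 in both CD44v6-positive samples. miR-1185-1-3p had 15 and 30 reads, and miR-487a-3p 16 and 20, again with 0 in both CD44v6-positive samples. At the CD44v6-negative share fewer than 4 reads of each would have been found there. miR-376c-3p had 17, 20, 1 and 0 reads, a pooled share ratio of 0.314 (exact counting interval 0.00774 to 1.86). miR-323a-3p had 5, 27, 3 and 0 reads, a ratio of 1.09 (0.213 to 3.48).

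The make-up of the cluster's reads, which does not depend on how libraries are scaled, differed between the samples. miR-127-3p made up 8.85% and 2.37% of the cluster's reads in CD44v6-negative samples 1 and 2, and 23.7% (Clopper-Pearson interval 16.4 to 32.4) and 35.1% (25.5 to 45.6) in CD44v6-positive samples 1 and 2. It took a larger share in both CD44v6-positive samples. miR-411-5p made up 26.2%, 18.9%, 20.3% and 5.32% in the same order, and miR-381-3p 17.7%, 17.1%, 7.63% and 5.32%. The share of miR-381-3p was smaller in both CD44v6-positive samples, whereas that of miR-411-5p overlapped between the groups. miR-409-3p made up 8.67%, 10.4%, 12.7% and 24.5%, and so was larger in both CD44v6-positive samples by this measure. The interval of CD44v6-positive sample 1, from 7.29 to 20.1, took in both CD44v6-negative shares. That of CD44v6-positive sample 2, from 16.2 to 34.4, did not.

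Ratios of members were also taken within each library. There were 0.338 and 0.126 reads of miR-127-3p for each read of miR-411-5p in CD44v6-negative samples 1 and 2, and 1.17 and 6.60 in CD44v6-positive samples 1 and 2. For miR-409-3p to miR-410-3p, whose hairpins are both in MEG9, the ratios were 1.00 and 1.37, and 3 and 5.75. Both ratios were higher in both CD44v6-positive samples, though miR-410-3p had only 5 and 4 reads there. For miR-381-3p to miR-411-5p the ratios were 0.676 and 0.908, and 0.375 and 1.0, and the groups overlapped. Ratios do not show which member of a pair differed. These were picked after the values were seen, so no test was made.

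**Figure D3:**
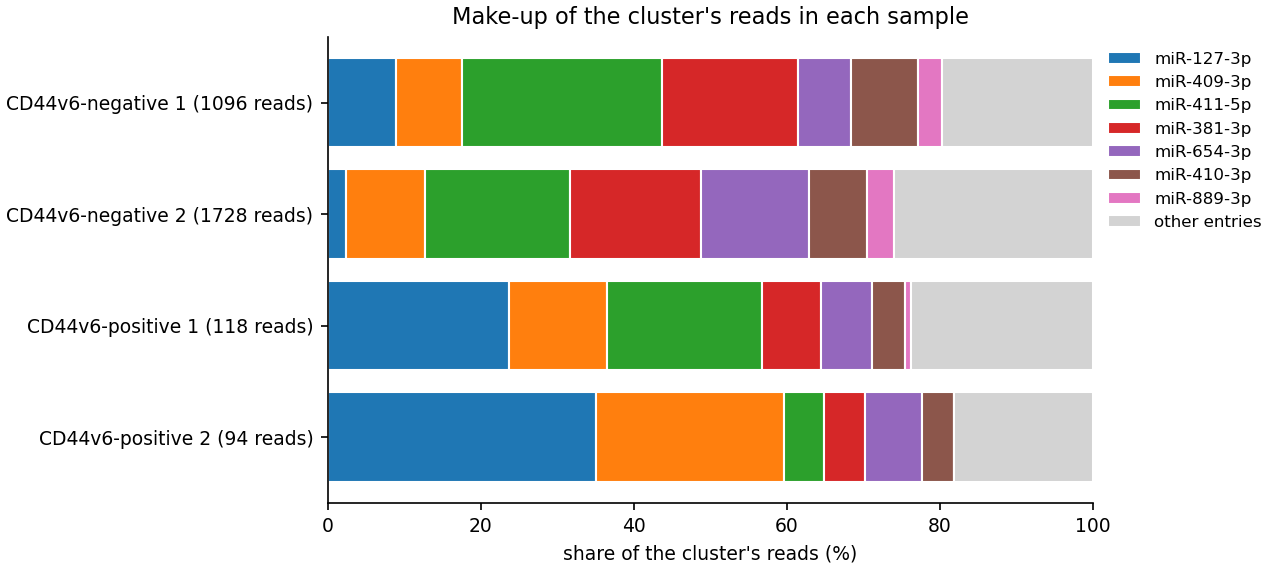
Share of the cluster's reads (horizontal axis, %) taken by each of the 7 most read members and by all other entries, as 1 stacked bar per sample, with the cluster's reads in brackets. miR-127-3p widens from 8.85% and 2.37% in CD44v6-negative samples 1 and 2 to 23.7% and 35.1% in CD44v6-positive samples 1 and 2.

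Arms were used unequally in most hairpins. Both arms are listed for 41 hairpin names, and 27 of these had 10 or more reads. The 3p arm held more reads in 22 of the 27 and the 5p arm in 5, and 1 arm held over 90% of the reads in 18. miR-127 gave 199 reads of its 3p arm and 0 of its 5p arm, miR-410 gave 235 and 0, and miR-381 gave 504 and 1. The opposite was seen for miR-134, with 34 reads of the 5p arm and 0 of the 3p arm, and for miR-411.

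Both arms reached 10 reads in 6 hairpin names. miR-411 had 642 reads of 5p and 12 of 3p, so that 1.83% (Clopper-Pearson interval 0.952 to 3.18) were 3p. miR-409 had 46 and 312 reads, of which 87.2% (83.2 to 90.4) were 3p. In miR-409 all 46 reads of the 5p arm were in CD44v6-negative cells, beside 15 and 23 reads of the 3p arm and 0 of the 5p arm in the CD44v6-positive samples. miR-1185, whose copies were summed, had 78.5% of its 79 reads on the 3p side. The arms were closer to even in miR-369 with 11 and 17 reads, miR-376a with 17 and 12, and miR-485 with 13 and 17, where each interval took in equal use.

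**Figure D4:**
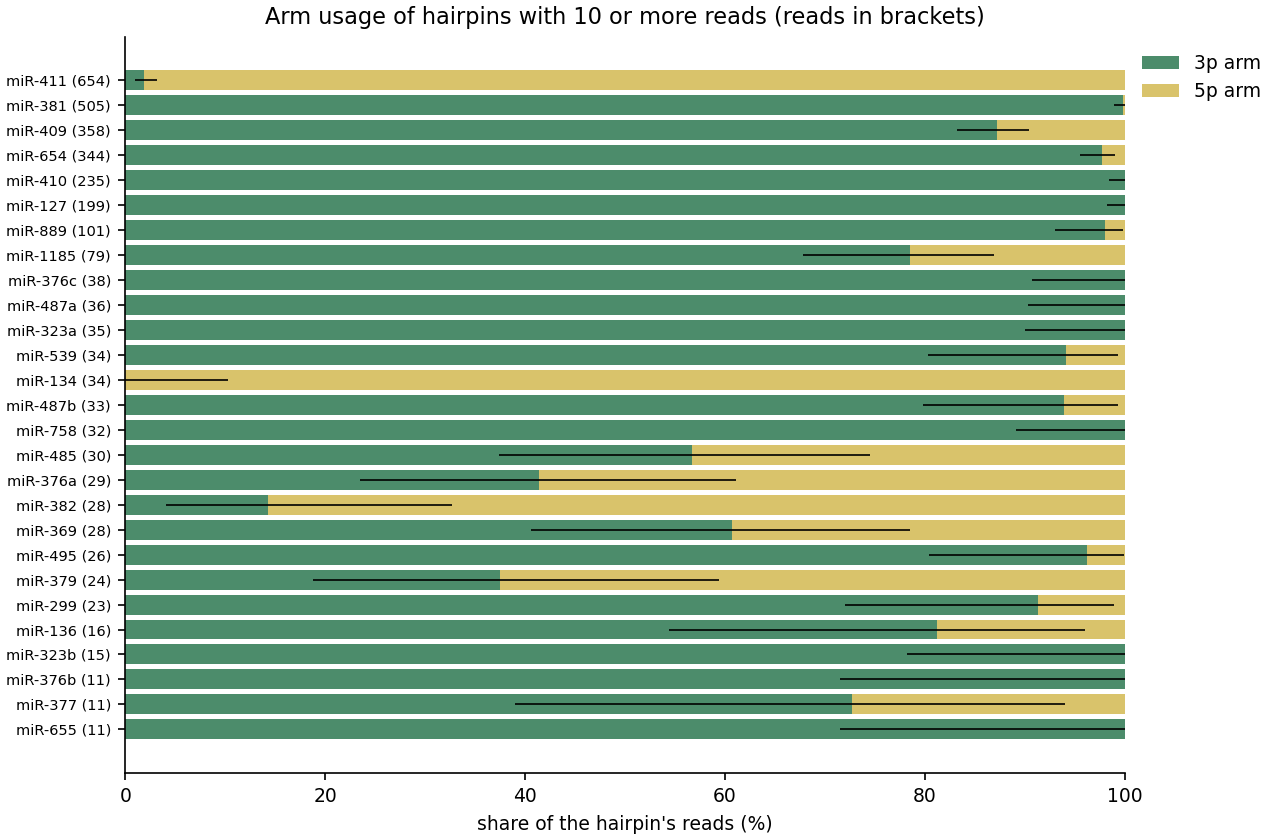
Share of reads from the 3p arm (green) and the 5p arm (yellow) of each hairpin name with 10 or more reads over the 4 samples (horizontal axis, %), with total reads in brackets and the exact 95% Clopper-Pearson interval of the 3p share as a line. Most bars are green along nearly all of their length, while miR-411 and miR-134 are nearly all yellow.

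Read and unread members differed in base composition. The median GC content of the mature sequence was 45.5% in the members read and 54.5% in those unread. It was 47.6% in the 11 tested members and 50% in the 497 tested entries of the whole table with a RefSeq sequence. Whether composition bears on detection was not tested.

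Marker miRNAs of other cell types were set beside these values, because the cluster is expressed in stromal and neural tissue. In these bulk samples fewer cells of a type and less RNA per cell cannot be told apart. Of 9 stromal and muscle markers 8 were read, with summed levels of 1424 and 975 CPM in CD44v6-negative cells and 938 and 5207 CPM in CD44v6-positive cells. The high value came with CD44v6-positive sample 2, in which miR-127-3p and miR-409-3p were also highest. It came mostly from miR-143-3p, a smooth muscle and fibroblast miRNA, at 4968 CPM there and from 664 to 1083 CPM elsewhere. In the same library miR-199a-5p was at 36.5 CPM, against 1.99 to 7.07 elsewhere, and the joined entry of miR-199a-3p and miR-199b-3p at 135 CPM, against 51.1 to 67.9. miR-214-3p was also highest there, at 5.21 CPM from 1 read. By contrast miR-145-5p, the cluster partner of miR-143-3p, was lowest there, at 57.3 CPM. So was miR-140-5p, at 5.21 CPM from 1 read, against 84.3 and 59.4 CPM in CD44v6-negative samples 1 and 2. The skeletal muscle miRNA miR-206 had 0 reads in all libraries.

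All 8 blood and endothelial markers were read, at summed levels of 3472, 1678, 3954 and 3874 CPM in the order used above. The red cell miRNA miR-451a was at 281 CPM in CD44v6-positive sample 2 and from 7.61 to 24.9 CPM elsewhere. In the same library miR-144-3p was at 36.5 CPM, against 2.16 to 2.87 elsewhere, and miR-142-5p at 276 CPM, against 60.4 to 114. miR-142-3p (20.8 CPM) and miR-223-3p (5.21 CPM from 1 read) were also highest there, by less. The other blood and endothelial markers were not highest there. miR-486-5p, also a red cell miRNA, was at 3109 CPM there and from 1288 to 3685 CPM elsewhere. miR-150-5p was at 5.21 CPM from 1 read, and the endothelial miR-126-3p was lowest there, at 141 CPM. Of 8 neural markers 7 were read, at 2569, 2092, 1423 and 1260 CPM. Most of this came from miR-9-5p, at 1977, 945, 836 and 437 CPM, and miR-128-3p, at 475, 1082, 532 and 792 CPM. The other neural markers were each at no more than 78.8 CPM. Among these miR-137 had 0 reads in all libraries, and miR-124-3p, a miRNA of neurons, was at no more than 2.29 CPM. The 10 epithelial markers, which fit a colorectal line, were all read, at 36700, 22687, 22006 and 19074 CPM. Among them miR-192-5p was at 4556 CPM in CD44v6-positive sample 2 and from 1031 to 1887 CPM elsewhere. miR-194-5p (234 CPM), miR-215-5p (250 CPM) and miR-375 (4650 CPM) were also highest there. The levels of miR-200a-3p, miR-200b-3p, miR-200c-3p, miR-141-3p, miR-429 and miR-203a-3p were lowest there. The part of any of these in the cluster's values was not tested.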

How the data were processed

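Small RNA was sequenced from 2 CD44v6-negative and 2 CD44v6-positive samples. Per the labels' protocols libraries came from total RNA by a small RNA kit, with selection of fragment size by gel. The authors deposited raw counts, whole numbers for each mature miRNA. The submitters' processing notes name GRCh38, Bowtie 0.12.9, cutadapt 1.10, CASAVA 1.8.2 and DESeq2. What each did, which miRNA annotation was used and how reads that match several places were treated is not given in the sources used here. The authors' normalized table was not used here. Totals ran from 154481 to 7880631 reads.

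The counts of all 2026 entries were tested once with edgeR 4.0.16 in R 4.3.3 (TMM scaling, filterByExpr at min.count 10 and min.total.count 15, glmQLFit and glmQLFTest), and p-values were Benjamini-Hochberg adjusted over all 570 entries that passed. At the median library the filter is 3.63 CPM, so 1 read in the shallowest library meets it, and a member could pass through the group where it is high. Standard errors were derived from the log2 fold change and its F statistic. Alternatives were DESeq2 1.42.0, limma 3.58.1 voom, other scalings and filters, summed arms, the replicate number as a block, and each sample left out. The procedure was tested on simulated counts with a fixed spread between samples that was not taken from these data. Estimated changes were judged there on entries with 10 or more reads in each library. The simulation therefore does not show how the test performs for members with few reads. Intervals came from scipy 1.17.1. Sequences came from the RefSeq table of GRCh38.p14, and 4 hairpin positions (miR-370, miR-381, miR-412 and miR-432) from GENCODE 29.

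The members, marker lists and tests were chosen with earlier results of these data known. By rule the text names each member that passed the filter, the 10 most read, hairpins with 10 or more reads of both arms, and members that share a seed with a tested one. Other members named were chosen after their values were seen.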

Additional observations from a re-analysis of the deposited data

How the results depend on the processing

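Calls depended on the settings and depth limited every comparison, since 1 read of the shallowest library is 5.21 CPM. Over all entries edgeR called 0 in the reported fit, with upper quartile scaling and with a filter of 10 CPM, 48 with scaling by library totals, 77 with no filter, 11 with arms summed and 26 to 55 with 1 sample left out, beside 52 with DESeq2 and 4 with limma-voom. Cluster members called were 0 of 11 in the reported fit, 1 of 11 with scaling by library totals (miR-127-3p) and 1 of 11 with DESeq2 (miR-136-5p).

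With the replicate number as a block (replicate block) edgeR called 228 entries and 1 member, miR-127-3p, at a log2 fold change of 2.59 (adjusted p = 0.00164). The labels do not say that a number marks a shared culture. Over the tested entries the deviations of the samples numbered 1 from their group means correlated at 0.392. With 2 samples in each group the deviations of the samples numbered 2 are the same with opposite sign, so this is 1 comparison.

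A group left with 1 sample is assumed to vary like the other, and members that missed the filter in a refit gave no value. Of 118 recomputed log2 fold changes of the 11 tested members, 110 kept their direction and 8 in 4 members reversed; the cause was not tested. With 1 sample left out the range was -0.39 to 2.11 for miR-409-3p, -1.01 to 0.82 for miR-487b-3p, -1.5 to 0.59 for miR-654-3p (0.17 without CD44v6-positive sample 1) and -1.08 to 0.77 for miR-758-3p. Under limma-voom miR-487b-3p was 0.62 and miR-758-3p 0.32, and under the replicate block miR-487b-3p was 0.21. For the summed CPM the log2 ratio lay between -1.04 and 0.91 on leaving out 1 sample and was -0.05 with DESeq2 size factors. For the downstream group it lay between -1.35 and 0.24 on leaving out 1 sample, an alternative chosen after seeing the data.

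With 3 reads required in place of 1, members read fell to 31, 44, 9 and 8 in the order CD44v6-negative 1 and 2 and CD44v6-positive 1 and 2, and at the depth of the shallowest library 9.69, 18.6, 9.44 and 17.0 were expected.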
